A study of Homo sapiens with 54 samples.

Results

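The effect of olaparib on top of the higher dose of cisplatin (CDDP) was compared between SUM1315 and MDA-MB-468, a pair of triple negative breast cancer cell lines. Libraries were chosen by their labels alone. In SUM1315, which carries a mutant BRCA1, 3 libraries from parental cells given 8 µM olaparib with 4 µM CDDP were set against 3 from parental cells given 4 µM CDDP. In MDA-MB-468, which has wild type BRCA1, 3 libraries from parental cells given 3 µM olaparib with 2.5 µM CDDP were set against 3 given 2.5 µM CDDP. These are 12 of the 54 libraries of the series, and all cells were treated overnight. The doses of both drugs differ between the lines, so line and dose cannot be told apart. The labels and methods do not say that the 3 libraries of a condition came from separate cultures, so p-values measure only the spread between these libraries. Treatment protocols give the doses in mM and the sample titles in µM, and µM is used here. The series' design text gives the higher CDDP dose of MDA-MB-468 as 2 µM where the titles have 2.5 µM, and the dose in the titles is the one printed.

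CDDP crosslinks bases of DNA, and the crosslinks stall replication forks and elongating RNA polymerase. Olaparib inhibits the poly(ADP-ribose) polymerases, which bind DNA breaks, and holds PARP-1 on the DNA. BRCA1 acts in homologous recombination, the repair of breaks from an intact copy, so cells that lack it depend more on other repair. E2F factors drive the genes for DNA replication, and hypoxia-inducible factors (HIF) drive genes for low oxygen, glucose breakdown and acid balance.

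The 12 libraries held 5420890 to 8222127 recovered reads. Levels are given as adjusted read counts, the deposited reads per gene after scaling to 1 library size. The lines were told apart by their markers. CDH1, the epithelial cadherin, had no read in the 6 SUM1315 libraries and 740 to 840 adjusted reads in MDA-MB-468, and VIM (vimentin) had 10380 to 11990 in SUM1315 and 7.99 to 32.9 in MDA-MB-468. Replicates of 1 condition were not the same library read again, since they differed beyond sampling noise (a chi-square of 2.43 to 5.94 for each degree of freedom). This does not show that they came from separate RNA or cultures, and libraries of different conditions were not compared in this way.

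Adding olaparib to CDDP changed more genes in SUM1315 than in MDA-MB-468, and the changed genes were mostly not the same. A gene is called when the limma adjusted p is at or under 0.05 and the change is at least 2-fold. In SUM1315, 336 of 13133 genes tested were called (2.56%), of which 242 were higher with olaparib (1.84%) and 94 lower (0.716%). In MDA-MB-468, 57 of 13012 were called (0.438%), 17 higher (0.131%) and 40 lower (0.307%). With no limit on the size of the change, the lines had similar numbers, 1686 (12.8%, 6.32% higher and 6.52% lower) and 1551 (11.9%, 4.63% higher and 7.29% lower). By edgeR's quasi-likelihood test on recovered reads, the MDA-MB-468 count was 91.

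Of the genes called, 319 of 336 in SUM1315 and 55 of 57 in MDA-MB-468 had no overlap between the libraries with and without olaparib. Over all genes tested, 33.7% in SUM1315 and 29.9% in MDA-MB-468 had no overlap.

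A total of 5 genes was called in both lines, 1.49% of the SUM1315 calls and 8.77% of the MDA-MB-468 calls. These shares count calls that were not tested in the other line. Of the SUM1315 calls, 191 higher and 59 lower genes were tested in MDA-MB-468. Of the MDA-MB-468 calls, 13 higher and 23 lower genes were tested in SUM1315. Over all genes tested, 0.438% were called in MDA-MB-468 and 2.56% in SUM1315, which is less than these 2 shares. CD14 was lower in both. DYSF, FGGY, KCNK3 and NDRG1 were higher in SUM1315 and lower in MDA-MB-468. At the adjusted p alone, 230 genes passed in both lines, 13.6% of those that passed in SUM1315 and 14.8% of those in MDA-MB-468. Of all genes tested, 11.9% passed in MDA-MB-468 and 12.8% in SUM1315, close to these 2 shares. Of these 230, 37 were higher in both, 74 lower in both, 77 higher in SUM1315 and lower in MDA-MB-468, and 42 the other way round. Across the 11755 genes tested in both lines the log2 fold changes had a Pearson r of 0.03 and a Spearman rank correlation of 0.03, given as a description, since genes are not independent replicates.

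**Figure D1:**
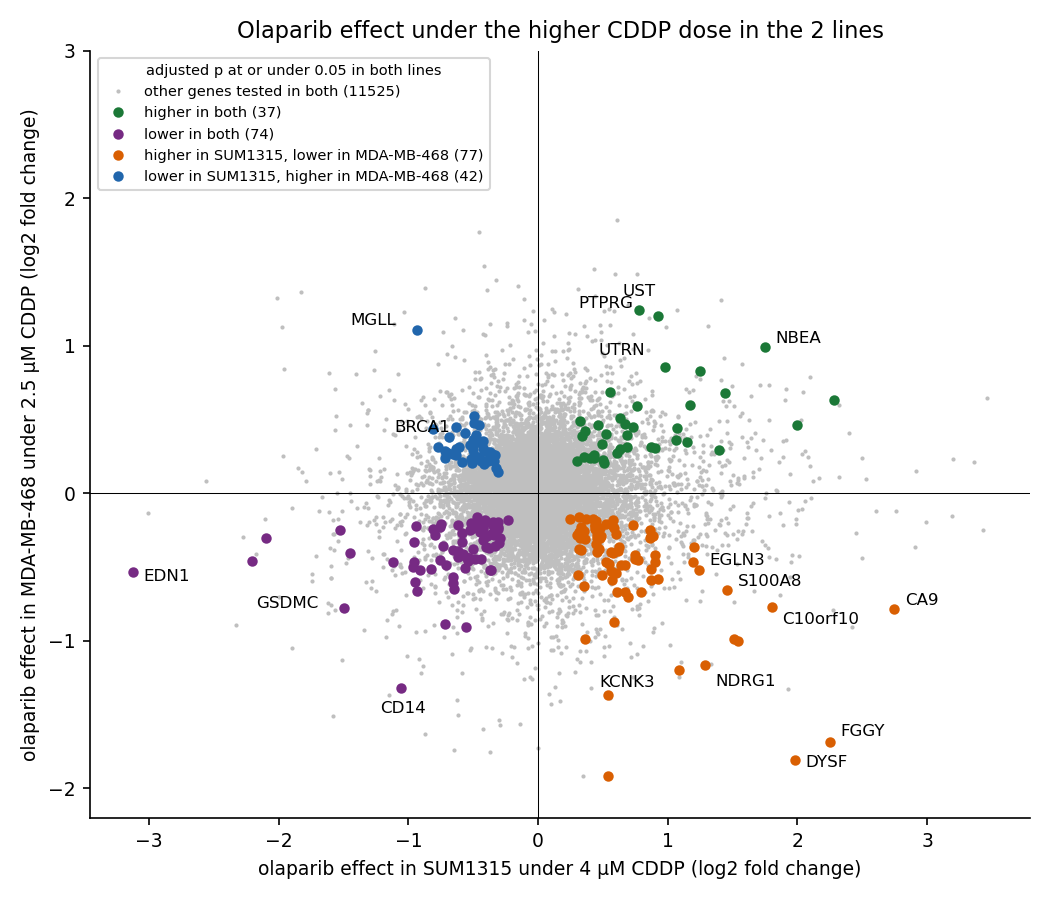
Each point is 1 of the 11755 genes tested in both lines, with the log2 fold change of olaparib under 4 µM CDDP in SUM1315 on the x axis and under 2.5 µM CDDP in MDA-MB-468 on the y axis. Coloured points are the 230 genes at an adjusted p at or under 0.05 in both lines, and 119 of them lie in the 2 quadrants of opposite direction.

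NDRG1, a stress-response gene that is induced in low oxygen, lies on chromosome 8 at 133237175 to 133297252 (hg38). Its adjusted read counts in SUM1315 were 391, 432 and 343 under CDDP and 924.5, 984 and 929 with olaparib. In MDA-MB-468 they were 1288, 1329 and 1287 under CDDP and 588, 587 and 569 with olaparib. Olaparib thus went with the higher libraries in SUM1315 and with the lower ones in MDA-MB-468, with no overlap in either line. The rise was 2.44-fold (log2 1.29 ± 0.10 SE, limma adjusted p = 7.1e-11) and the fall 2.24-fold (log2 -1.16 ± 0.06, adjusted p = 3.12e-22). The difference between the lines was 2.45 ± 0.11 on the log2 scale (adjusted p = 4.31e-25). At the lower CDDP doses, in other libraries, the change was 0.90 in SUM1315 under 2 µM (adjusted p = 6.01e-08) and -0.28 in MDA-MB-468 under 1 µM (adjusted p = 0.00121).

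FGGY, a carbohydrate kinase gene (chromosome 1, 59296378 to 59762730), was read 1 to 22 times per SUM1315 library. Its adjusted read counts were 2.07, 0.82 and 7.31 under CDDP and 15.9, 17.2 and 15.3 with olaparib in SUM1315. In MDA-MB-468 they were 21.5, 20.5 and 33.9 under CDDP and 2.73, 7.17 and 15.7 with olaparib. The groups do not overlap in either line, and the difference between the lines was 3.93 ± 0.60 (limma adjusted p = 5.96e-06). DYSF, the muscle membrane repair gene dysferlin (chromosome 2, 71453561 to 71686763), had 3.07, 2.76 and 0.81 under CDDP and 9.93, 9.09 and 14.6 with olaparib in SUM1315. It had 6.27, 4.61 and 9.60 under CDDP and 1.39, 1.34 and 0.79 with olaparib in MDA-MB-468. All of these are low levels, and fold changes on log2(value + 1) understate changes of such genes.

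KCNK3, a potassium channel gene (chromosome 2, 26692722 to 26733420), had 17.5, 17.4 and 16.8 under CDDP and 51.7, 33.8 and 30.3 with olaparib in SUM1315. Its MDA-MB-468 values were 28.8, 34.9 and 29.1 under CDDP and 17.1, 17.3 and 7.04 with olaparib. CD14, a co-receptor for bacterial lipopolysaccharide (chromosome 5, 140631732 to 140633701), fell from 127, 118 and 164 to 58.6, 54.4 and 84.3 in SUM1315. In MDA-MB-468 it fell from 31.1, 49.9 and 34.0 to 8.04, 20.9 and 17.7. No group overlapped for these genes, but their calls stood near the threshold, with limma adjusted p = 0.0466 and 0.0186 for KCNK3 and 0.0181 and 0.0409 for CD14 in SUM1315 and MDA-MB-468.

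Single libraries and processing settings decided part of this list of 5. Without SUM1315 CDDP replicate 3 the count was 2, and without SUM1315 combination replicate 2 it was 3. KCNK3 lost its SUM1315 call without any 1 of the 6 libraries (adjusted p of 0.0588 to 0.201) and its MDA-MB-468 call without combination replicate 3 or CDDP replicate 2 (0.205 and 0.0754). CD14 lost its MDA-MB-468 call without any library but combination replicate 2 (0.0564 to 0.236), and its SUM1315 call without combination replicate 1 or 2 or CDDP replicate 3 (0.0652 to 0.0946). DYSF lost its SUM1315 call without CDDP replicate 3 (0.0606) and its MDA-MB-468 call without combination replicate 2 or 3 or CDDP replicate 1 or 3 (0.0608 to 0.133). With a pseudocount of 0.5, KCNK3 lost its SUM1315 call and CD14 its MDA-MB-468 call (limma adjusted p = 0.057 and 0.0598). With no filter on low values both were lost again (0.106 and 0.134), as was KCNK3 in MDA-MB-468 (0.0651). A fit of only the compared groups also lost KCNK3 in MDA-MB-468 (0.0546). With a pseudocount of 5, KCNK3 fell under the 2-fold limit in both lines, as did DYSF in MDA-MB-468. NDRG1 and FGGY kept both calls in every alternative run.

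Among the genes that moved the same way in both lines at the adjusted p but were not called at 2-fold in both, as CD14 was, the 6 with the largest smaller change were NBEA, PTPRG, UTRN, RETREG1, UST and GSDMC. NBEA, a protein of membrane trafficking, had 30.8, 14.3 and 33.1 adjusted reads under CDDP and 78.4, 104.5 and 73.5 with olaparib in SUM1315. Its MDA-MB-468 values were 34.7, 42.4 and 28.4 under CDDP and 53.2, 81.4 and 78.9 with olaparib. The log2 rises were 1.75 ± 0.33 and 0.99 ± 0.20 (limma adjusted p = 0.000391 and 0.000284), and the difference between the lines did not pass (0.76 ± 0.40, adjusted p = 0.231). UTRN (utrophin, which links the cytoskeleton to the membrane) rose by 0.98 ± 0.17 and 0.85 ± 0.13 on the log2 scale, with values of 225 to 252 against 393 to 517.5 in SUM1315 and 90.9 to 98.3 against 159 to 184 in MDA-MB-468. PTPRG, a receptor tyrosine phosphatase, rose by 0.92 and 1.20, UST, a sulfotransferase of dermatan sulfate, by 0.78 and 1.24, and RETREG1, a receptor for autophagy of the endoplasmic reticulum, by 1.25 and 0.83. PTPRG lay at 3.11 to 12.4 adjusted reads in MDA-MB-468 and lost its pass without any 1 of the 6 libraries there (limma adjusted p of 0.059 to 0.16). GSDMC, a gasdermin, fell by 1.5 and 0.78 on the log2 scale. It had 18.5, 23.8 and 23.9 under CDDP and 12.9, 7.73 and 3.41 with olaparib in SUM1315, a call that was lost without combination replicate 3 (adjusted p = 0.0876). Without CDDP replicate 3 the RETREG1 change in SUM1315 was 0.88, under the 2-fold limit.

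The genes that rose in both lines were long. The median span from start to end of the gene was 317 kb for the 37 that rose in both, with 31 at 100 kb or more and 19 at 300 kb or more. For the 74 that fell in both it was 14.2 kb, and none reached 300 kb. Over the 11755 genes tested in both lines it was 29.4 kb, with 346 at 300 kb or more. Further long genes that rose in both, chosen after their values were seen, were CDKAL1 (698 kb, log2 1.44 and 0.68), TENM1 (828 kb, 2.28 and 0.63), ROBO1 (1170 kb, 0.63 and 0.51), EXT1 (317 kb, 0.67 and 0.47) and STAG1 (416 kb, 0.73 and 0.45). They code for a tRNA-modifying enzyme, a teneurin cell adhesion protein, an axon guidance receptor, a heparan sulfate polymerase and a cohesin subunit. TENM1 differed between the lines (1.65 ± 0.46, limma adjusted p = 0.012, and 0.0501 without MDA-MB-468 CDDP replicate 2), and the interactions of the other 4 did not pass (adjusted p of 0.138 to 0.781). Of genes that fell in both, SLC19A1, the reduced folate carrier, was also chosen after its values were seen. It had 157, 124 and 179 against 100.3, 99.0 and 78.0 in SUM1315 and 90.1, 112.5 and 94.8 against 76.5, 52.6 and 36.6 in MDA-MB-468 (log2 -0.72 ± 0.17 and -0.89 ± 0.22).

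Among the genes that passed the filter on low values, the median olaparib effect under CDDP was higher for genes of 100 kb and over than for shorter genes in both lines. In SUM1315 the median log2 fold change was -0.06 for genes under 10 kb, -0.07 for 10 to 30 kb, 0.01 for 30 to 100 kb, 0.13 for 100 to 300 kb and 0.48 for 300 kb and over. In MDA-MB-468 the same medians were -0.06, -0.03, 0.03, 0.08 and 0.16. With no filter on low values, the medians at 300 kb and over were 0.26 in SUM1315 and 0 in MDA-MB-468. Of the genes of 300 kb and over tested in SUM1315, 79.7% were above 0, 92 were called higher (19.7%) and 2 lower. Of 391 in MDA-MB-468, 70.6% were above 0, and 2 were called higher and 2 lower. Of the 346 tested in both, the interaction was positive for 71 and negative for 7. Over all genes tested, 1.84% were called higher and 0.716% lower in SUM1315, and 0.131% and 0.307% in MDA-MB-468. Above 0 were 6632 of 13133 genes in SUM1315 and 6594 of 13012 in MDA-MB-468. The interaction was positive for 5.67% of all genes and negative for 5.84%. The 242 genes called higher in SUM1315 had a median span of 191 kb, against 29.4 kb for all tested and 15.7 kb for those called lower. A span was known for 98.3% and 98.4% of the genes tested.

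**Figure D2:**
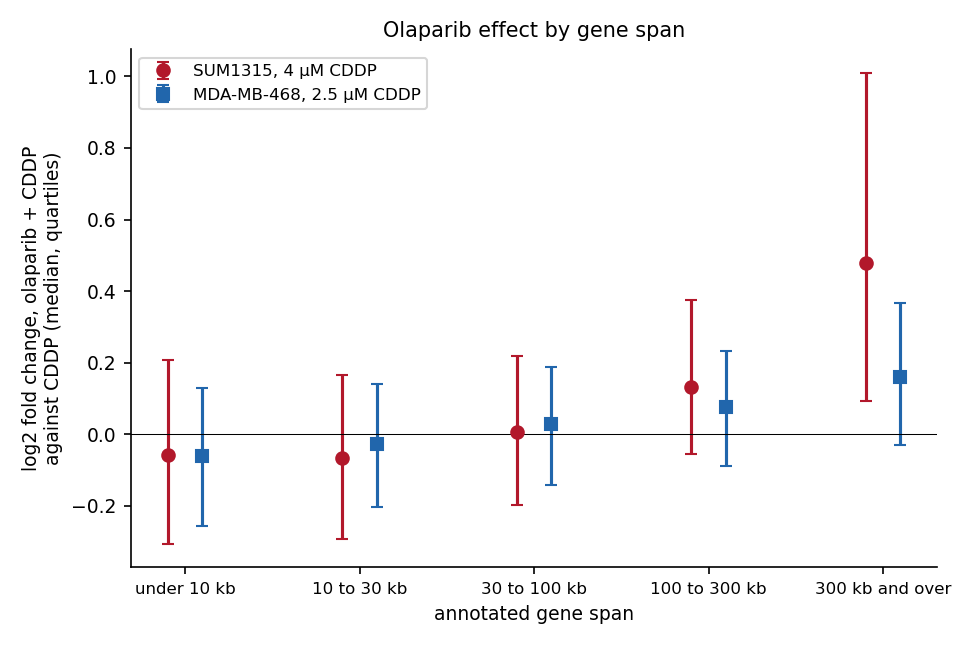
The x axis bins genes by span in kb and the y axis gives the median log2 fold change of olaparib under the higher CDDP dose, with bars from the lower to the upper quartile of genes, red circles for SUM1315 and blue squares for MDA-MB-468. The SUM1315 median under 4 µM CDDP was 0.48 at 300 kb and over, and the MDA-MB-468 median under 2.5 µM was 0.16.

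The levels against untreated cells show which side of this comparison lay away from them. For genes of 300 kb and over in SUM1315, the median log2 level was -0.97 under 4 µM CDDP and -0.40 with olaparib added, and -0.26 with olaparib alone. In MDA-MB-468 it was -0.42 under 2.5 µM CDDP, -0.27 with olaparib added and -0.09 with olaparib alone. The 3 replicates lay within -0.95 to -0.92 and -0.46 to -0.34 for the SUM1315 CDDP and combination groups, and within -0.43 to -0.38 and -0.28 to -0.24 for those of MDA-MB-468. At the lower CDDP dose the same comparison gave a median change of 0.15 in SUM1315 and 0.08 in MDA-MB-468, and without CDDP -0.26 and -0.09.

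A difference between the lines was tested gene by gene as an interaction, and 1353 of 11755 genes passed (11.5%), 666 positive (5.67%, SUM1315 above MDA-MB-468) and 687 negative (5.84%). Of them, 277 differed by at least 1 on the log2 scale. The sign of the olaparib effect was opposite in the lines for 1132. Taken by each line's own test, 690 passed in SUM1315 alone, 328 in MDA-MB-468 alone, 137 in both and 198 in neither. All 119 genes that passed in both lines with opposite signs had an interaction, and so did 18 of the 111 with the same sign. The interaction is the difference between the olaparib effects of the lines, from the same libraries. The counts by sign and by each line's own test are thus largely fixed by that and are no separate support.

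In 12 of 22 hypoxia-response genes the effect of olaparib differed between the lines. The list holds 23 genes and was chosen with earlier results of these data known. Of 22 tested in SUM1315, 6 were higher and 1 lower at the adjusted p, with a median log2 fold change of 0.26, against 0.004 over all genes tested. Over all genes tested in SUM1315, 6.32% were higher and 6.52% lower. Of 22 tested in MDA-MB-468, none was higher and 11 were lower, with a median of -0.34, and 7.29% of all genes tested there were lower. The interaction was positive for 12 of 22 and negative for none, with a median of 0.55, while 5.67% of all genes had a positive one. Higher in SUM1315 were CA9, NDRG1, EGLN3, BNIP3L, P4HA1 and KDM3A, and lower was ADM. Lower in MDA-MB-468 were CA9, ANGPTL4, NDRG1, EGLN3, PDK1, LDHA, PGK1, BNIP3L, P4HA1, STC1 and PFKFB3.

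CA9, the carbonic anhydrase that acidifies the space outside low-oxygen cells (chromosome 9, 35673928 to 35681159), had 27.7, 26.5 and 27.4 adjusted reads under CDDP and 173, 187 and 206.5 with olaparib in SUM1315. The MDA-MB-468 libraries had 225, 229.5 and 214 under CDDP and 139, 134 and 115 with olaparib. The libraries with olaparib were all higher in SUM1315 and all lower in MDA-MB-468. The changes were 6.71-fold higher (log2 2.75 ± 0.43, limma adjusted p = 3.7e-05) and 1.72-fold lower (log2 -0.79 ± 0.19, adjusted p = 0.00288), and the interaction was 3.53 ± 0.50 (adjusted p = 1.6e-06). CA9 rose in SUM1315 by 2.35 under 2 µM CDDP and by 3.62 without CDDP, and its values in MDA-MB-468 were -0.55 under 1 µM (adjusted p = 0.0916) and -0.01 without CDDP (adjusted p = 0.97).

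EGLN3, a prolyl hydroxylase that marks HIF for destruction, had 62.6, 29.6 and 66.8 under CDDP and 108, 145 and 109 with olaparib in SUM1315, and 315, 346 and 364 against 229, 283 and 208 in MDA-MB-468. Its interaction was 1.76 ± 0.27 (limma adjusted p = 6.32e-06), and without SUM1315 CDDP replicate 2 its SUM1315 change was 0.88, under the 2-fold limit. ANGPTL4, an inhibitor of lipoprotein lipase, fell in MDA-MB-468 from 217, 198 and 209 to 109, 87.1 and 85.7. In SUM1315 its groups overlapped, with 120.1, 77.2 and 104 under CDDP and 79.4, 91.8 and 93.8 with olaparib. Its interaction of 0.98 ± 0.27 passed (adjusted p = 0.0107) but did not without SUM1315 CDDP replicate 2 (0.81, adjusted p = 0.0555). MIR210HG, the host transcript of the hypoxia-induced microRNA miR-210, had 9.23, 3.5 and 10.8 under CDDP and 48.7, 32.6 and 48.8 with olaparib in SUM1315. In MDA-MB-468 it had 21.2, 17.3 and 25.4 against 13.5, 11.4 and 8.12 (limma adjusted p = 0.15), and the interaction was 3.32 ± 0.62 (adjusted p = 0.000141). C10orf10, now named DEPP1, a FOXO-regulated gene, rose 3.5-fold in SUM1315 (11.8 to 38.9 against 79.4 to 92.0) and fell 1.71-fold in MDA-MB-468 (105 to 151 against 68.9 to 79.5).

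The list members in this paragraph, a part of the rest of the list, were chosen for naming after their values were seen. BNIP3L, a receptor for removal of mitochondria, changed by 0.86 and -0.31 on the log2 scale in SUM1315 and MDA-MB-468, P4HA1, a collagen prolyl hydroxylase, by 0.58 and -0.40, and both had an interaction (1.17 and 0.98). PDK1, which holds pyruvate back from mitochondria, was 0.29 in SUM1315 (limma adjusted p = 0.384) and fell by 0.66 in MDA-MB-468 (adjusted p = 0.00288). Its interaction of 0.95 did not pass without SUM1315 combination replicate 1 (0.76, adjusted p = 0.0559). PGK1, a glycolytic enzyme, was 0.10 (adjusted p = 0.505) and -0.34 (adjusted p = 2.32e-05), and STC1, the hormone stanniocalcin, -0.06 (adjusted p = 0.721) and -0.74 (adjusted p = 2.83e-12). KDM3A, a histone demethylase, was 0.64 (adjusted p = 0.00595) and -0.28 (adjusted p = 0.108). ADM, the vessel-dilating peptide adrenomedullin, was -0.72 (adjusted p = 0.00851) and -0.34 (adjusted p = 0.189). VEGFA, the vessel growth factor, had values of -0.03 and 0.01 with adjusted p of 0.883 and 0.969.

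**Figure D3:**
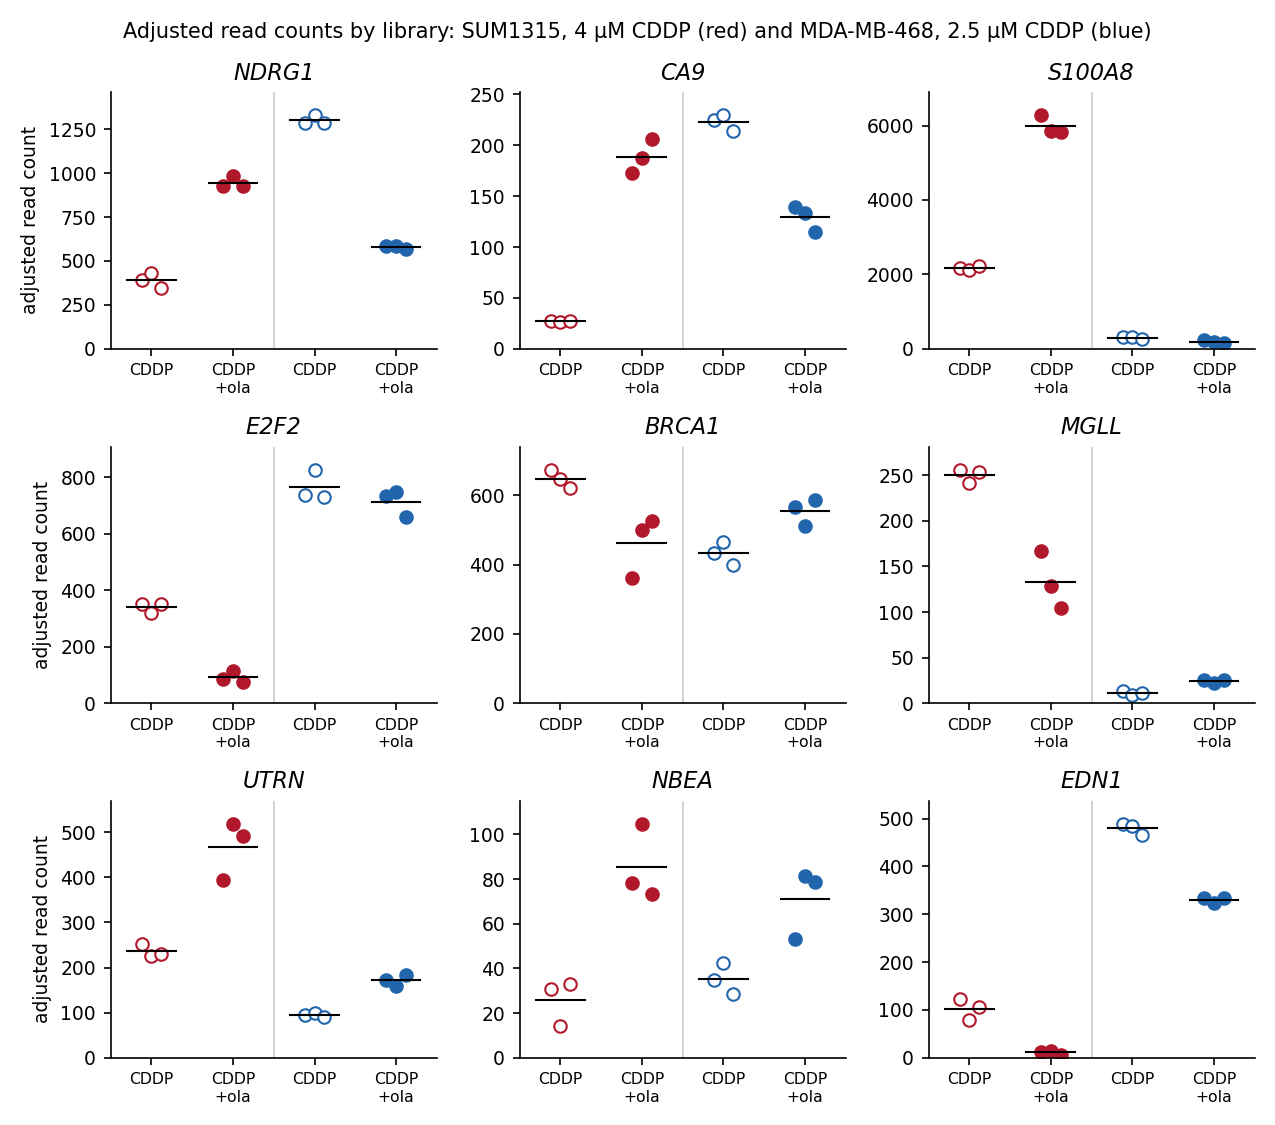
Adjusted read counts (y axis, from 0) of named genes in each of the 12 libraries, with CDDP alone and olaparib with CDDP side by side for each line, points for libraries and a line at the mean. NDRG1, with 343 to 432 against 924.5 to 984 in SUM1315 and 1287 to 1329 against 569 to 588 in MDA-MB-468, moved in opposite directions without overlap.

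The promoters of CA9 and of MIR210HG, a hypoxia-induced transcript outside the list, are shown because HIF binds the core letters ACGTG and GCGTG. The windows run from 250 bases before to 50 after the start site (RefSeq, GRCh38.p14), with the core letters, found on either strand, in capitals. The CA9 window is chr9:35673678-35673977 on the plus strand, with CACGT in capitals because ACGTG lies on the other strand, 18 bases before the start. The MIR210HG window is chr11:568408-568707 on the minus strand, with ACGTG 170 and GCGTG 9 bases before the start.
CA9: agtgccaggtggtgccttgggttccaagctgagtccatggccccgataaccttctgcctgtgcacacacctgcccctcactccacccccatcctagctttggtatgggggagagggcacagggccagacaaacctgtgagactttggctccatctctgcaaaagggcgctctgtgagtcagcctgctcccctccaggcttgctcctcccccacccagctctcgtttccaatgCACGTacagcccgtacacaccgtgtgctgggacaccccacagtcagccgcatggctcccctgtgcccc
MIR210HG: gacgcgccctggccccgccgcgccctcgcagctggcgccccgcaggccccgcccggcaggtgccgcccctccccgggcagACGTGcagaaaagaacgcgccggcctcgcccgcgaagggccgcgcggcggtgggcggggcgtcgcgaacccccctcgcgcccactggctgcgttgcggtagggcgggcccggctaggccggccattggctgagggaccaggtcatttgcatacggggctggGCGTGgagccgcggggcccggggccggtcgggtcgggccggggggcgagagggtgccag
Of all 35116 promoters of this length, 48.4% hold ACGTG or GCGTG, 21.4% the first and 36.5% the second. Of the 19 promoters matched to the hypoxia list, 17 (89.5%) hold one, and the EGLN3 window holds neither. A match is a description of letters and not a site of binding.

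Of the E2F targets and replication genes, 18 of 31 tested in SUM1315 were lower and 1 higher at the adjusted p, against 6.52% and 6.32% of all genes tested, with a median log2 fold change of -0.57. Of 32 tested in MDA-MB-468, 3 were lower (MCM2, CDT1 and GINS2) and 1 higher (CLSPN), with a median of -0.01. Over all genes tested in that line, 7.29% were lower and 4.63% higher, so these counts were near the shares over all genes. The interaction was negative for 17 of 31 and positive for none, with a median of -0.56, and 5.84% of all genes had a negative one. In bulk libraries, fewer cells in a state such as S phase and less RNA per cell cannot be told apart.

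E2F2, an activator of the S phase genes (chromosome 1, 23505212 to 23531233), was the member called at 2-fold. It had 352, 319 and 350.2 adjusted reads under CDDP and 87.4, 115 and 74.3 with olaparib in SUM1315. In MDA-MB-468 it had 738, 827 and 729 against 733, 748 and 660.1. The groups were apart in SUM1315 and overlapped in MDA-MB-468, with changes of -1.90 ± 0.21 (limma adjusted p = 2.11e-07) and -0.10 ± 0.08 (adjusted p = 0.487) on the log2 scale. The interaction was -1.80 ± 0.23 (adjusted p = 1.08e-07). Under 2 µM CDDP its change in SUM1315 was -1.38 (adjusted p = 3.43e-05), and its value with olaparib alone was 0.11 (adjusted p = 0.73).

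Further members were chosen for naming after their values were seen. CDC6, which loads the replicative helicase, had 978, 1030 and 898 against 558, 566 and 576 in SUM1315 and 849, 915 and 914 against 960.1, 950.4 and 977 in MDA-MB-468. It fell by 0.77 ± 0.09 in SUM1315, was 0.11 in MDA-MB-468 (limma adjusted p = 0.376), and had an interaction of -0.88 ± 0.11 (adjusted p = 4.96e-08). The helicase subunits MCM3 and MCM5 fell by 0.78 and 0.82 in SUM1315, and their MDA-MB-468 values were -0.17 and -0.03 (adjusted p = 0.0905 and 0.916). MCM2 fell by 0.75 in SUM1315 and by 0.21 in MDA-MB-468, a difference of -0.54 (adjusted p = 0.012). The activator E2F1 fell by 0.79, the phosphatase CDC25A by 0.92 and the sliding clamp PCNA by 0.55 in SUM1315, and each had an interaction (-0.77, -0.98 and -0.57). E2F7, a repressor among the E2F factors, was the member that rose in SUM1315 (0.41 ± 0.14, adjusted p = 0.04). CLSPN (claspin, which relays the replication checkpoint) rose in MDA-MB-468 from a range of 1138 to 1232 to one of 1634 to 1719 (0.50 ± 0.07, adjusted p = 9.21e-07). In SUM1315 it was -0.58 (adjusted p = 0.0519).

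Against untreated SUM1315 cells, the log2 level of the E2F list (the median over genes of the mean of 3 libraries) was 1.39 under 4 µM CDDP, 0.77 with olaparib added and 0.13 with olaparib alone, and under 2 µM CDDP it was 1.14 and 0.49 with olaparib added. Taken as the median over genes within each library, the level with olaparib alone was 0.23 to 0.32, above the 0.13 of the first summary. In MDA-MB-468 the levels were 0.78 under 2.5 µM CDDP and 0.73 with olaparib added, and 0.50 and 0.54 at 1 µM. For the hypoxia list the levels in SUM1315 were 0.14 under 4 µM CDDP, 0.49 with olaparib added and 0.53 with olaparib alone. In MDA-MB-468 they were -0.03, -0.34 and 0.11. The hypoxia level with olaparib added was thus close to the level with olaparib alone in SUM1315 and below both of its parts in MDA-MB-468, as values with no test between them.

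**Figure D4:**
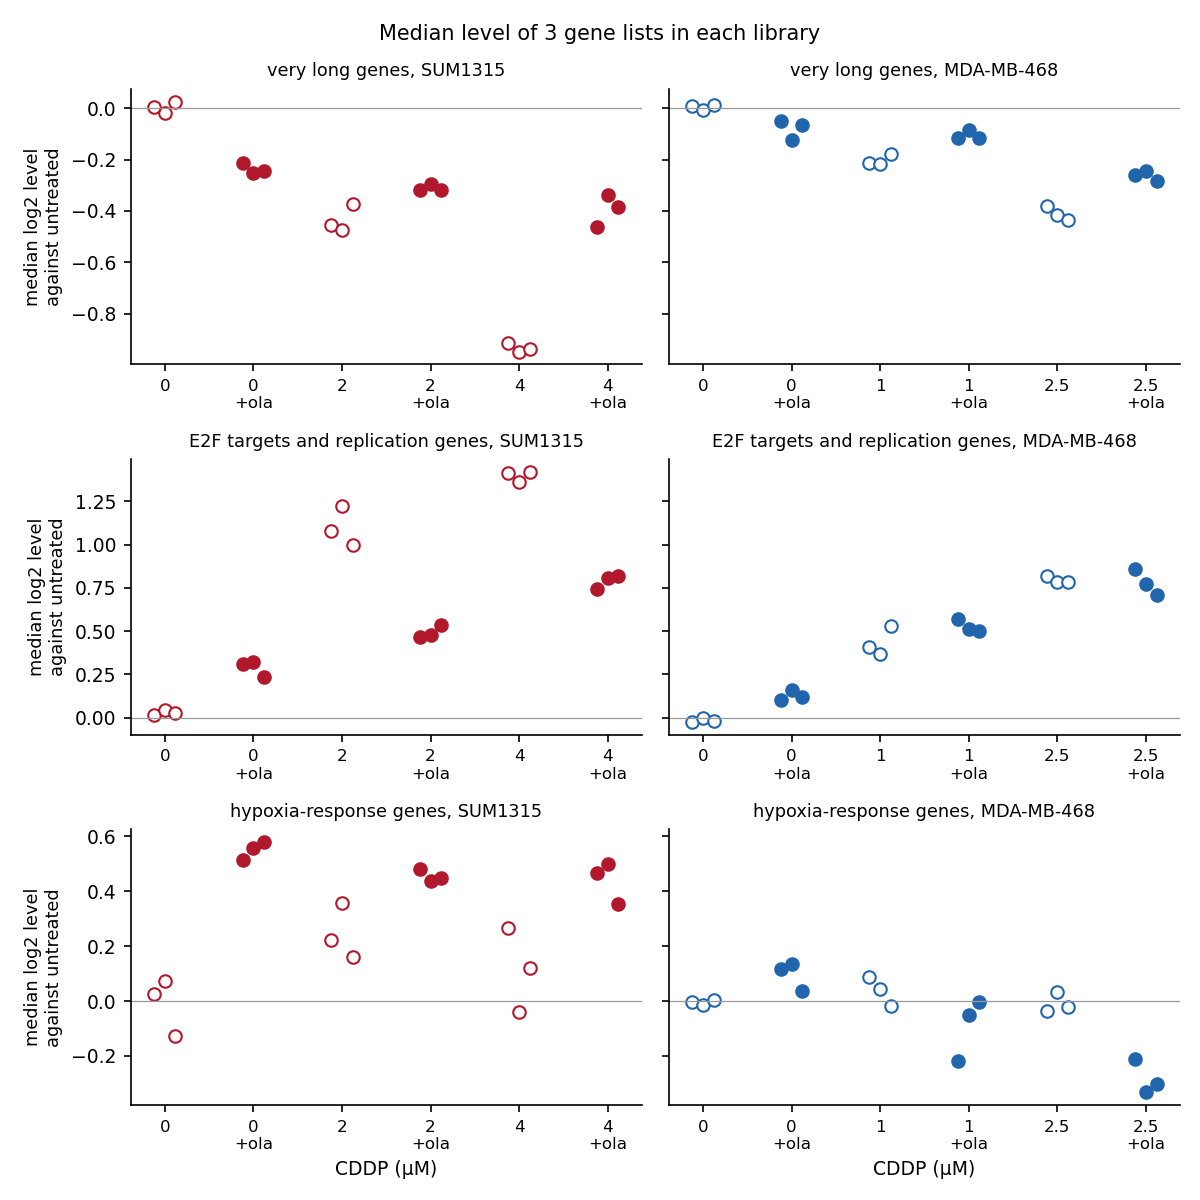
Each point is 1 library, at the median over list genes of the log2 level against untreated cells (y axis), for the very long gene, E2F and hypoxia lists by CDDP dose (x axis, in µM), open without and filled with olaparib, SUM1315 in red and MDA-MB-468 in blue. The E2F points in SUM1315 lay at 1.36 to 1.42 under 4 µM CDDP and at 0.74 to 0.82 with olaparib added, and those of MDA-MB-468 at 0.78 to 0.82 under 2.5 µM and 0.71 to 0.86.

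The promoters of E2F2 and CDC6 are shown because E2F factors bind TTTGGCGC and TTTCCCGC, whose letters on either strand are in capitals. The E2F2 window is chr1:23531184-23531483 on the minus strand, with TTTGGCGC 42 bases before the start. The CDC6 window is chr17:40287629-40287928 on the plus strand, with TTTGGCGC 7 bases after the start.
E2F2: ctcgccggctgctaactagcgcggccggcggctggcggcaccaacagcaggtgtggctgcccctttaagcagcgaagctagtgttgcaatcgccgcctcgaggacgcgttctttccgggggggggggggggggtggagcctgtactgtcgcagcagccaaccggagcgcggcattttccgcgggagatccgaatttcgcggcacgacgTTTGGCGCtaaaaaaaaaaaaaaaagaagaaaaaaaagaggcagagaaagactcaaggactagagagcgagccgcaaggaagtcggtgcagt
CDC6: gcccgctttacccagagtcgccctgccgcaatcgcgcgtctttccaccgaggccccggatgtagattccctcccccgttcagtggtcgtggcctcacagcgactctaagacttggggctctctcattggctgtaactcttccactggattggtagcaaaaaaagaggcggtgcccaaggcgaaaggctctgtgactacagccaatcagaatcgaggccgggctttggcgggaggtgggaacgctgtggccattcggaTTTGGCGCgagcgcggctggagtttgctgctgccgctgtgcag
Of the 35116 promoters, 2.27% hold TTTGGCGC or TTTCCCGC, 0.652% the first and 1.63% the second, and 16 of the 26 matched to the E2F list do (61.5%).

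BRCA1 itself moved apart, by less than 2-fold in each line. In SUM1315 it had 674, 647 and 621 adjusted reads under CDDP and 361, 501 and 527 with olaparib. In MDA-MB-468 it had 434, 465 and 399 under CDDP and 566, 511 and 587 with olaparib. The changes were -0.50 ± 0.13 (limma adjusted p = 0.00995) and 0.36 ± 0.08 (adjusted p = 0.00182), and the interaction -0.86 ± 0.15 (adjusted p = 1e-04). The values at the lower CDDP doses were -0.03 and 0.19 (adjusted p = 0.915 and 0.242). Of 26 homologous recombination and Fanconi anemia genes, 5 were lower and none higher in SUM1315 (median -0.22), and 5 were higher and none lower in MDA-MB-468 (median 0.10), while 6.52% of all genes were lower in SUM1315 and 4.63% higher in MDA-MB-468. The interaction was negative for 4 of the 26 (5.84% of all genes), BRCA1, BRCA2 and EXO1 among them, and positive for none. BRCA2, another gene of homologous recombination, rose in MDA-MB-468 by 0.50 ± 0.08 (616 to 735 against 934 to 969, adjusted p = 5.53e-06), and was -0.44 in SUM1315 (adjusted p = 0.165). EXO1, an exonuclease that resects breaks, fell by 0.66 in SUM1315 (adjusted p = 0.0301) and was 0.26 in MDA-MB-468 (adjusted p = 0.124). PARP1, the gene of the drug's main target, had 1888, 1766 and 1804 against 1534, 1506 and 1488 in SUM1315 (-0.27 ± 0.09, adjusted p = 0.0379), and 1230, 1123 and 1223 against 1276, 1229 and 1140 in MDA-MB-468 (0.03 ± 0.07, adjusted p = 0.869). Its interaction did not pass (-0.30 ± 0.11, adjusted p = 0.069). Of 23 PARP and base excision repair genes, 3 were lower in SUM1315, and 2 were higher and 1 lower in MDA-MB-468. The shares of all genes were 6.52% lower in SUM1315, and 4.63% higher and 7.29% lower in MDA-MB-468.

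S100 genes, which code for small calcium-binding proteins, differed between the lines. In SUM1315, 4 of 13 tested were higher and 2 lower, and in MDA-MB-468 1 of 13 was higher and 6 lower. The interaction was positive for 6 of 12 and negative for 2. Among all genes, 6.32% were higher and 6.52% lower in SUM1315, 4.63% and 7.29% in MDA-MB-468. A positive interaction was found for 5.67% and a negative one for 5.84%. S100A8 and S100A9 form calprotectin, an inflammatory protein complex. S100A8 had 2183, 2119 and 2219 against 6276, 5852 and 5822 in SUM1315, and 308, 303.5 and 275 against 222, 175 and 167 in MDA-MB-468 (interaction 2.12 ± 0.18, limma adjusted p = 1.22e-12). S100A9 had 4121, 4194 and 3858 against 10610, 8673 and 8808, and 1211, 1255 and 1235 against 898, 923 and 1061 (interaction 1.56 ± 0.17, adjusted p = 1.26e-09). S100A7 (psoriasin) rose in SUM1315 by 1.20 ± 0.37 from a range of 8.06 to 15.2 to one of 25.8 to 32.1, a call that was lost without combination replicate 2 or 3 or CDDP replicate 2 (adjusted p of 0.0733 to 0.151). S100P, which binds the receptor RAGE, went the other way, from 64.8, 71.1 and 100.6 to 32.8, 26.1 and 5.77 in SUM1315. In MDA-MB-468 it fell from a range of 656 to 671 to one of 492 to 562.5, and the interaction of -1.79 did not pass without SUM1315 combination replicate 3 (-1.07, adjusted p = 0.092). S100A6 rose by 0.45 and fell by 0.40, and S100A4 was -0.27 (adjusted p = 0.0864) and fell by 0.82 in MDA-MB-468, both chosen after their values were seen.

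Of 14 keratins tested in SUM1315, which form the filaments of epithelial cells, 5 were lower (KRT7, KRT8, KRT18, KRT75 and KRT80) and 1 higher (KRT17) at the adjusted p, with a median of -0.74. In MDA-MB-468, 3 of 16 were lower and none higher, with a median of -0.08. Over all genes, 6.52% were lower in SUM1315 and 7.29% in MDA-MB-468. KRT80, another type II keratin, had 264, 280 and 285 against 83.4, 83.9 and 83.7 in SUM1315 and 284, 241.5 and 269 against 349, 272 and 366 in MDA-MB-468 (interaction -2.01 ± 0.22, limma adjusted p = 1.77e-09). KRT75, a keratin of the hair follicle, fell in SUM1315 from 402, 390.1 and 477 to 126, 145 and 107. KRT6B had no read in SUM1315 and fell in MDA-MB-468 from a range of 59.0 to 80.1 to one of 24.6 to 40.4, a change of -1.01 that was under the 2-fold limit without combination replicate 1 or CDDP replicate 3 (-0.80 and -0.89), and reads of near-identical KRT6 copies may be split. KRT7 and KRT18 of simple epithelia fell by 0.94 and 0.90 in SUM1315 and were 0.06 and -0.03 in MDA-MB-468 (adjusted p = 0.66 and 0.877). KRT8 fell in both (by 0.93 and 0.66), and KRT17 of basal cells rose in SUM1315 by 0.31 (all 4 chosen after their values were seen). The annotated spans of KRT8 and KRT18 overlap. The summed level of the 12 epithelial markers moved with olaparib too, from a range of 679 to 801 to one of 393 to 484 in SUM1315 and from a range of 22567 to 23386 to one of 18478 to 18875 in MDA-MB-468. The 12 mesenchymal markers summed to 23673 to 24160 against 21462 to 23491 in SUM1315 and 1545 to 1583 against 1162 to 1232 in MDA-MB-468, where VIM fell from 29.6, 29.7 and 32.9 to 14.8, 15.8 and 7.99. That call was lost without combination replicate 3 (adjusted p = 0.0933), and the part of marker levels in the results was not tested.

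Of 24 NF-kB targets, 7 were lower and 1 higher in SUM1315 at the adjusted p (median -0.28), where 6.52% of all genes were lower. In MDA-MB-468, 3 of 15 tested were lower and none higher (median -0.10), where 7.29% of all genes were lower. CXCL1, a chemokine that draws neutrophils, had 3602, 4045 and 3582 against 1586, 1623 and 1606 in SUM1315 (-1.22 ± 0.11, limma adjusted p = 2.37e-09), and 0 to 5.38 in MDA-MB-468, where it was not tested. Chosen after their values were seen, the feedback inhibitor TNFAIP3 and the chemokine CXCL8 fell in SUM1315 by 0.88 and 0.65, while the inhibitor NFKBIA rose by 0.32 there and fell by 0.26 in MDA-MB-468. Of 21 integrated stress response genes, 8 were lower and 1 higher in SUM1315 (median -0.40), and 2 were higher and 2 lower in MDA-MB-468 (median 0.04). The interaction was negative for 6 of the 21 and positive for 1, against 5.84% and 5.67% of all genes. In MDA-MB-468, 4.63% of all genes were higher and 7.29% lower. Among them PHGDH, the first enzyme of serine synthesis, fell in SUM1315 from a range of 1103 to 1138 to one of 827 to 839 and rose in MDA-MB-468 from a range of 990 to 1097 to one of 1219 to 1321 (interaction -0.73 ± 0.15, adjusted p = 0.000733).

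Of the heat shock genes, 2 of 16 were higher and 3 lower in SUM1315, and 3 of 17 were higher and 3 lower in MDA-MB-468. The shares of all genes were 6.32% and 6.52% in SUM1315 and 4.63% and 7.29% in MDA-MB-468. The interaction was positive for 3 of 16 and negative for 7 (median -0.245), against 5.67% and 5.84% of all genes. HSPA1B, an inducible HSP70, had 42.2, 74.6 and 45.6 against 130.1, 116 and 106 in SUM1315 and 265, 313 and 290.2 against 264, 318 and 312 in MDA-MB-468 (interaction 1.104 ± 0.215, limma adjusted p = 0.000281). Its near-identical copy HSPA1A changed by 0.75 and -0.45 (interaction 1.19), so that reads may be split between them. HSPH1, a co-chaperone among the 7 with a negative interaction, changed by -0.44 and 0.22. Without SUM1315 CDDP replicate 1 the HSPA1B change was 0.99, under the 2-fold limit. Of further genes, each chosen after its values were seen because it moved in opposite directions in the lines, NOP56, NOP2 and RRP12 act in ribosome assembly and SRM is spermidine synthase. The log2 changes in SUM1315 and MDA-MB-468 were -0.63 and 0.30 for NOP56, -0.71 and 0.24 for NOP2, -0.63 and 0.45 for RRP12 and -0.72 and 0.29 for SRM. The metallothioneins MT1X and MT2A, which bind metals, went the other way, with 0.49 and -0.56 for MT1X and 0.52 and -0.21 for MT2A. MT2A reads may be shared with related copies.

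The shares of all genes that passed in either direction were 12.8% in SUM1315, 11.9% in MDA-MB-468 and 11.5% for the interaction. The other lists were the p53 targets (3 of 24 in SUM1315 and 2 of 23 in MDA-MB-468 at the adjusted p, no interaction), G2/M genes (2 of 30 and 6 of 30, 1 interaction) and interferon-stimulated genes (3 of 24 and 1 of 18, 1 interaction). Cholesterol synthesis genes had 3 of 21 higher in SUM1315, 3 of 22 lower in MDA-MB-468 and 5 positive interactions. NRF2 targets had 3 higher and 1 lower in SUM1315, 1 higher and 2 lower in MDA-MB-468 and 3 positive interactions. Immediate early and MAPK feedback genes had 2 higher and 8 lower of 26 in SUM1315 and 3 lower of 24 in MDA-MB-468.

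**Figure D5:**
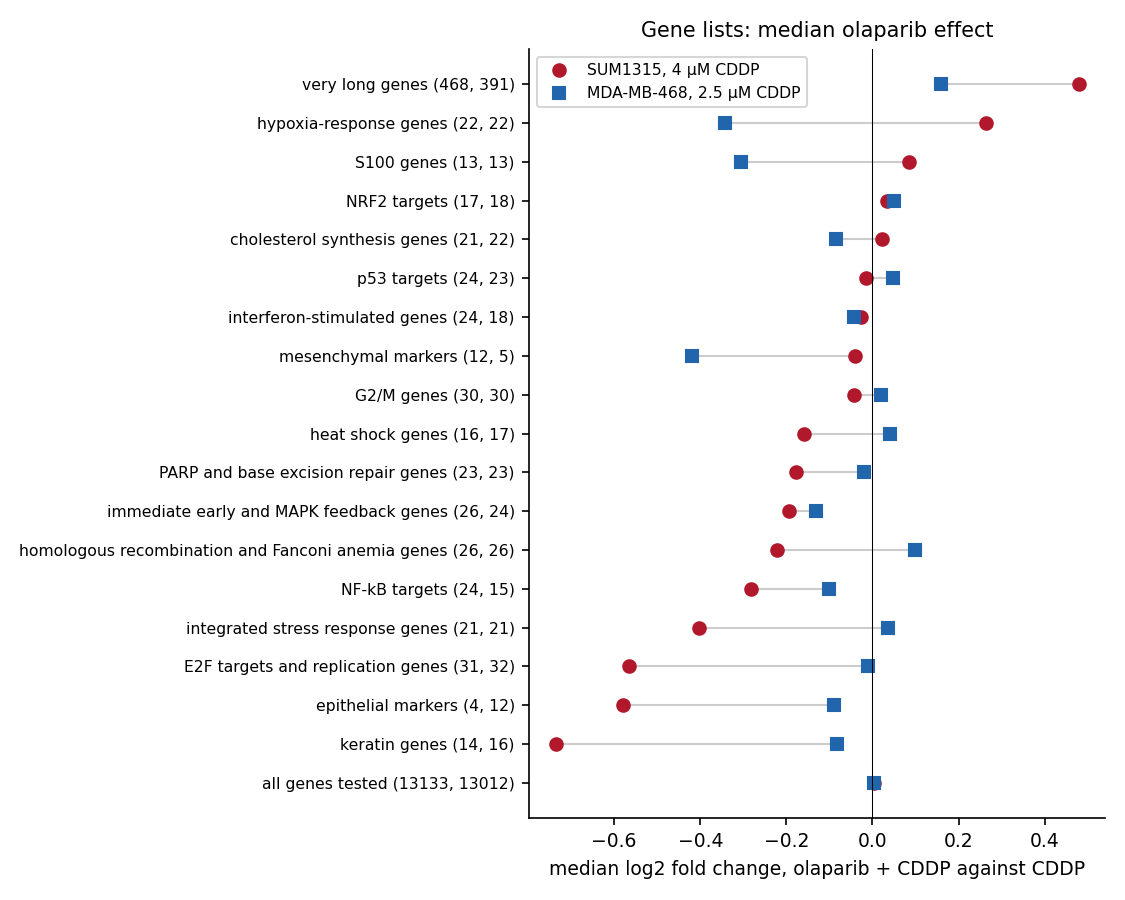
Median log2 fold change of olaparib under CDDP (x axis) for each gene list (y axis, with the numbers tested in SUM1315 and MDA-MB-468), red circles for SUM1315 and blue squares for MDA-MB-468. The hypoxia list lay at 0.26 and -0.34 and the E2F list at -0.57 and -0.01, against medians of 0.004 over all genes in both lines.

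Interactions were ranked among genes called in a line with a mean of at least 20 adjusted reads over the 12 libraries and no overlap in that line, a limit that leaves out FGGY and DYSF. The largest positive ones, besides CA9 and MIR210HG, were ANKS1B, GAS1, MAP2, MAPT, SNX29 and TRAPPC9, all called in SUM1315. MAPT (tau) and MAP2 are microtubule-binding proteins of neurons. MAPT had 3.09, 5.57 and 1.67 against 26.8, 21.2 and 35.4 in SUM1315 and 117, 151 and 102 against 112, 104 and 120 in MDA-MB-468 (interaction 2.88 ± 0.36, limma adjusted p = 9.63e-08). MAP2 had no read in the 3 SUM1315 CDDP libraries and 32 in the 3 with olaparib, at least 10-fold higher than a floor of 3 reads over the group. In MDA-MB-468 it had 94.3, 91.6 and 96.7 against 95.3, 102 and 135. ANKS1B, a synaptic scaffold gene of 1250 kb, had 3.16, 13.8 and 17.1 against 70.5, 96.8 and 66.3 in SUM1315 and 0.55 to 13.2 in MDA-MB-468. TRAPPC9, of 731 kb, had 5.11, 0.83 and 3.55 against 26.8, 44.4 and 30.5, and 51.1 to 95.1 against 69.1 to 99.3. SNX29, of 598 kb, had 6.14, 4.59 and 1.64 against 35.8, 26.5 and 43.5, and 16.5 to 26.2 against 14 to 31.9. GAS1, a growth arrest gene of 3.14 kb, had 12.3, 8.27 and 1.52 against 33.8, 30.1 and 31.5, and 15.7 to 34.9 against 13.2 to 16.1. In these 6 genes the SUM1315 libraries with olaparib lay above those without, and the MDA-MB-468 groups overlapped.

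Within the same limit, the largest negative interactions were in IL7R, EDN1, TNFSF15, MGLL, KRT80, SFTA1P, WNT10B and SNAR-E. EDN1 (endothelin, which constricts vessels) fell most in SUM1315 among genes with a mean of at least 20 in the 6 libraries of the line and no overlap, from 122, 79.1 and 105 to 12.9, 15.2 and 6.08, which was 8.70-fold. In MDA-MB-468 it fell from 488, 485 and 465 to 333, 323 and 335, 1.45-fold, and the interaction was -2.58 ± 0.49 (limma adjusted p = 0.00018). In SUM1315 its log2 change was -4.24 under 2 µM CDDP and -4.45 without CDDP, and in MDA-MB-468 -0.71 under 1 µM and -1.09 without. IL7R, the interleukin-7 receptor, had 586, 574 and 667 against 179, 142 and 143 in SUM1315 and 0 to 6.70 in MDA-MB-468. It met the limit on the mean through SUM1315 alone, and its MDA-MB-468 part is imprecise. Without each library in turn its interaction was -4.02 to -2.55 and its SUM1315 change -2.09 to -1.91. WNT10B, a Wnt ligand, had 73.9, 62.1 and 61.7 against 14.9, 8.03 and 17.3, and 55.9 to 71.7 against 45.1 to 63.0. TNFSF15, a TNF-family cytokine, had 101, 98.7 and 97.2 against 38.8, 21.3 and 17.7, and 30.7 to 47.5 against 47.5 to 48.5. Its SUM1315 call was lost without any 1 library other than combination replicate 1 (adjusted p of 0.0657 to 0.108), and its interaction without SUM1315 combination replicate 2 or 3, CDDP replicate 1, MDA-MB-468 combination replicate 3 or CDDP replicate 2 (0.0511 to 0.0782). SFTA1P, a pseudogene transcript, had 247, 256 and 257 against 87.4, 81.3 and 86.5, and 5.90 to 16.1 against 11.9 to 20.4, and its interaction did not pass without MDA-MB-468 CDDP replicate 2 (adjusted p = 0.0549).

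Of genes that moved oppositely at the adjusted p in both lines, MGLL, the lipase of monoacylglycerols, fell in SUM1315 from 256, 241 and 253 to 167, 129 and 104. It rose in MDA-MB-468 from 13, 8.63 and 11.1 to 25.8, 21.7 and 26.0, a rise that was lost without combination replicate 1 or 3 or CDDP replicate 2 there (limma adjusted p of 0.052 to 0.0895). SNORD13 and SNORA12 are small nucleolar RNAs, which mostly lack the poly(A) tail that these libraries are primed on. SNORD13 had 207, 216 and 233 against 549, 611 and 720.1 in SUM1315 and 2396, 2476 and 2104 against 1156, 1112 and 1237 in MDA-MB-468 (interaction 2.50 ± 0.24, adjusted p = 5.93e-11). SNORA12 had 65.5, 26.2 and 22.4 against 99.3, 100.2 and 101, and 229.5, 212 and 218 against 120.1, 93.1 and 117. ARHGEF10L rose 1.61-fold in SUM1315 and fell 1.62-fold in MDA-MB-468.

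Within that limit on a line's mean and overlap, PCBP3, an RNA-binding protein gene, rose most in SUM1315, from 17.4, 5.35 and 4.19 to 72.5, 75.3 and 80.3 (9.10-fold, limma adjusted p = 1.61e-05), and had no read in MDA-MB-468. In MDA-MB-468 and within the limit, SNAR-E, a small noncoding RNA with near-identical copies, rose most, from 44.3, 18.5 and 26.9 to 61.1, 87.9 and 110 (2.92-fold, adjusted p = 3.01e-06), and was 577 to 741 against 441 to 514 in SUM1315 (adjusted p = 0.306). MSMB, a secreted protein first known from semen, fell most in MDA-MB-468 within it, from 153, 120 and 164 to 55.6, 56.4 and 52.5 (2.60-fold, adjusted p = 8.4e-07), and was at 0 to 4.68 in SUM1315.

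The genes called at the higher dose were looked up in contrasts of other libraries of the line, which shared the fit and the filter with the call. Of the 242 higher in SUM1315, 210 were also above 0 under 2 µM CDDP (median log2 0.52, 53 at the adjusted p) and 139 without CDDP (median 0.13, 48 at the adjusted p and 13 the other way). Of the 94 lower, 82 were below 0 under 2 µM CDDP (median -0.92) and 73 without CDDP (median -0.74). In MDA-MB-468, 33 of the 40 lower genes were below 0 under 1 µM CDDP (median -0.37) and 26 without CDDP (median -0.20), and of the 17 higher genes 8 were above 0 in each. Over all genes, 330 were called under 2 µM CDDP in SUM1315 (2.51%) and 25 under 1 µM in MDA-MB-468 (0.192%), and 1228 (9.35%) and 226 (1.74%) with olaparib alone. The medians over all genes tested in those comparisons lay between -0.05 and 0.02. Among all 13133 genes tested in SUM1315, 5871 were above 0 under 2 µM CDDP, 686 of them at the adjusted p. Without CDDP 6532 were above 0, with 2488 higher and 2244 lower at the adjusted p, so 48 of 242 was near the share over all genes. Below 0 in SUM1315 were 7244 of all genes under 2 µM CDDP and 6587 without CDDP. Among all 13012 tested in MDA-MB-468, 6021 were below 0 under 1 µM CDDP and 6312 without CDDP. Above 0 in that line were 6985 and 6685.

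Looked up in the other line, 191 of the 242 genes higher in SUM1315 were tested in MDA-MB-468, where 109 were above 0, none was called higher and the median was 0.06. An interaction was found for 123 of the 191. Of the 94 lower genes 59 were tested there, 37 were below 0, and 32 had an interaction. Of the 17 genes higher in MDA-MB-468, 13 were tested in SUM1315, 10 were above 0 (median 0.48), and 3 had an interaction. Of the 40 lower genes 23 were tested in SUM1315, 11 were below 0, 4 were called higher, and 12 had an interaction. Among all 13012 genes tested in MDA-MB-468, 6594 were above 0 and 6407 below. Among all 13133 tested in SUM1315, 6632 were above 0 and 6481 below. Over all genes, 0.131% were called higher in MDA-MB-468 and 1.84% in SUM1315, and 11.5% had an interaction. The interaction contains the contrast by which these genes were called, from the same libraries. Its counts in this paragraph are thus largely fixed by that choice and are no separate support.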

How the data were processed

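RNA from 12 of 54 libraries of 2 cell lines is compared. Per the labels, 200 ng of total RNA went into QuantSeq 3′ mRNA libraries (FWD), and the submitters' processing notes list CASAVA 1.8.2, FastQC, STAR, HTSeq and edgeR with hg38. Counting by strand and the annotation are not given in the sources used here. The signal deposited by the authors is a table of reads per gene (27470 genes), brought by edgeR to 1 common library size (5585170) with a dispersion of 0.01039 and within each condition, which can shrink differences between the libraries of a condition. Whole reads were recovered by inverting this, and gave back 100% of 1483380 values to within 1e-06. No read was found for 4082 genes, 2 row names are repeated and 27 are names turned into dates. Deposited tables of fold changes, p-values and FDR against untreated cells were not used.

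The main test was limma 3.58.1 with an intensity trend (R 4.3.3) on log2 of the adjusted count plus a pseudocount of 1, with the 27 libraries and 9 conditions of a line in 1 fit and genes with at least 10 in at least 3 libraries. The line interaction was fitted over 54 libraries and 18 conditions. Adjusted p-values are those of Benjamini and Hochberg over all genes tested. Counts of adjusted reads depend on depth, and low levels are imprecise.

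The members, lists and tests were chosen with earlier results of these data known. Named genes are those called in both lines, the 6 of largest shared change in the same and in opposite directions, the 8 of largest positive and 8 of largest negative interaction among called genes with a mean of at least 20, list members called in a line, the gene that rose and fell most in each line, BRCA1, PARP1, VIM and CDH1. Others are said to be chosen after their values were seen. Of the gene names, 25194 matched current symbols, 1224 older ones and 1052 none. Replicate numbers did not pair the libraries, since libraries of the same number correlated by -0.004 to 0.04 after removing condition means. edgeR 4.0.16 and limma voom on recovered reads, other pseudocounts and filters, centring, smaller fits, a replicate block and leaving out each library were tried. The scripts were tested on simulated data.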

Additional observations from a re-analysis of the deposited data

Results flagged for a closer look

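The effect of olaparib under CDDP differed between SUM1315 and MDA-MB-468 for 1353 genes by limma's interaction test across all genes, and the named genes among them are given with the SUM1315 change minus the MDA-MB-468 change on the log2 scale. The lines had different doses of both drugs, so line and dose cannot be told apart. Among genes called in both lines in opposite directions, the differences were FGGY (3.93), DYSF (3.79), NDRG1 (2.45) and KCNK3 (2.28). Genes that passed in both lines with opposite signs were C10orf10 (2.58), SNORA12 (2.54), SNORD13 (2.50), ARHGEF10L (1.39) and MGLL (-2.04). The most positive differences among other called genes with a mean of at least 20 over the 12 libraries and no overlap in the line of the call were CA9 (3.53), MIR210HG (3.32), ANKS1B (3.27), MAP2 (3.15), GAS1 (3.06), TRAPPC9 (2.97), MAPT (2.88) and SNX29 (2.76). The most negative within the same limit, other than MGLL, were IL7R (-3.10), EDN1 (-2.58), TNFSF15 (-2.22), KRT80 (-2.01), SFTA1P (-1.99), WNT10B (-1.98) and SNAR-E (-1.96). IL7R, ANKS1B and SFTA1P met the limit through SUM1315 and had low levels in MDA-MB-468, so the sizes of their differences are imprecise.

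In the hypoxia list the differences were EGLN3 (1.76), BNIP3L (1.17), P4HA1 (0.98), ANGPTL4 (0.98), PDK1 (0.95), KDM3A (0.92), STC1 (0.68) and PGK1 (0.44). In the E2F list they were E2F2 (-1.80), CLSPN (-1.08), CDC25A (-0.98), CDC6 (-0.88), MCM5 (-0.79), E2F1 (-0.77), MCM3 (-0.62), PCNA (-0.57) and MCM2 (-0.54). Among recombination genes they were BRCA2 (-0.94), EXO1 (-0.92) and BRCA1 (-0.86). S100 genes had differences of S100A8 (2.12), S100A9 (1.56), S100A7 (1.51), S100A6 (0.85), S100A4 (0.54) and S100P (-1.79). Among keratins and vimentin they were VIM (1.18), KRT17 (0.48), KRT18 (-0.87) and KRT7 (-0.999). Named heat shock genes were HSPA1A (1.19), HSPA1B (1.104) and HSPH1 (-0.66), out of 3 positive and 7 negative ones in that list. The remaining genes were RRP12 (-1.08), SRM (-1.01), NOP2 (-0.95), NOP56 (-0.93), TENM1 (1.65), MT1X (1.05), MT2A (0.73), NFKBIA (0.58) and PHGDH (-0.73).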

How the results depend on the processing

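Of 2086 pairs of a named value and an alternative, 2011 kept their direction and their side of the threshold, 75 kept the direction but lost the threshold and none reversed. The cause of each shift below was not tested, except where the setting itself drops the limit on the change. With a pseudocount of 5, MDA-MB-468 had 36 calls under 2.5 µM CDDP and 3 genes were called in both lines. With no filter on low values, the MDA-MB-468 calls were 101 under 2.5 µM and 66 under 1 µM CDDP, and olaparib alone gave 2116 in SUM1315, with 662 higher and 1454 lower against 655 and 573. limma voom on recovered reads gave 97 calls in MDA-MB-468 under 2.5 µM, 41 under 1 µM and 9 shared genes. edgeR's test gave 91 in MDA-MB-468, 57 of them shared with limma. In SUM1315 edgeR called 311 genes, 286 of them shared, and 1624 interactions, 1345 of them shared. With no limit on the change the counts were 1686 in SUM1315, 1551 in MDA-MB-468 and 230 shared, and an interaction of at least 1 in size left 277.

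Without each library in turn there were 260 to 301 calls in SUM1315 under 4 µM CDDP, 47 to 78 in MDA-MB-468 under 2.5 µM, 2 to 7 shared genes and 1041 to 1258 interactions. It gave 202 to 485 in SUM1315 under 2 µM, with 202 without CDDP replicate 2, and 16 to 32 in MDA-MB-468 under 1 µM, with 16 without combination replicate 1. With olaparib alone it gave 900 to 1389 in SUM1315 and 192 to 230 in MDA-MB-468. For very long genes the median effect was 0.26 in SUM1315 and 0 in MDA-MB-468 with no filter, against 0.48 and 0.16, and the hypoxia and E2F medians moved by less than 0.1 under every setting other than leaving out a library. Without each library in turn, the hypoxia median was 0.18 to 0.27 in SUM1315 and -0.46 to -0.33 in MDA-MB-468, and the E2F median -0.59 to -0.52 in SUM1315.

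The replicate numbers did not pair the libraries. A replicate block moved no count by over 1.5 times, with 338 and 55 calls in SUM1315 and MDA-MB-468 at the higher doses, 5 shared genes, 1338 interactions, 330 and 23 calls at the lower doses and 1220 and 223 with olaparib alone. Depth limits genes of few reads, with a standard error of the interaction of 0.60 for FGGY against 0.11 for NDRG1.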
